A study of Homo sapiens with 6 samples.

Results

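The 8 genes described here encode subunits of SWI/SNF, the ATP-dependent complex that slides and evicts nucleosomes to open chromatin. SMARCA4 and SMARCA2 are its alternative ATPases, and SMARCB1, SMARCC1 and SMARCD3 belong to its core. ARID1A and ARID1B are alternative large subunits of the BAF form, and PBRM1 belongs to the PBAF form. Rhabdoid tumours characteristically lose SMARCB1, and the other subunits then form an incomplete complex that occupies enhancers poorly. The values below are DNA contacts at the genes of these subunits and measure neither their RNA nor their protein.

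Contacts were read from HiChIP, in which chromatin is ligated in place and immunoprecipitated, so that paired-end tags (PETs) join 2 DNA segments held at a chosen protein or histone mark. All 6 libraries came from G401, an established human rhabdoid tumour line without SMARCB1 that carried a SMARCB1 inducible by doxycycline. The groups were ARID1A HiChIP at day 3 of doxycycline at 1 μg/ml, H3K27ac HiChIP at day 3 of the same treatment, and H3K27ac HiChIP at day 0 without it, with 2 libraries each; H3K27ac marks active promoters and enhancers. The sample titles label the day 3 libraries SMARCB1 +/+ and the day 0 libraries SMARCB1 -/-. SMARCB1, the drug and the time in culture all differed between day 3 and day 0, no group had doxycycline alone, and these cannot be told apart. Whether the line is a single clone is not given in the sources used here. A loop is a listed pair of anchors, the DNA intervals that PETs join. A row belonged to a gene when either anchor overlapped the gene interval in hg19 with 5 kb added on each side, called the gene window below, and its PETs were summed. Of the 8 genes, 6 had a listed loop, and SMARCA2 and SMARCB1 had none in any library.

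Rows at the 8 genes numbered 423 and 444 of the 157578 and 164053 loops in the ARID1A libraries, 470 and 452 of 162010 and 162167 for H3K27ac at day 3, and 139 and 134 of 46677 and 44104 at day 0. Total listed PETs were 435210 and 467487 for ARID1A, 929128 and 982141 for H3K27ac at day 3, and 301703 and 253502 at day 0. Anchors appear to have been called once per group, so loops of a segment that lacks an anchor in 1 group went unmeasured in that group, and their absence does not show 0 contacts. Replicates differed little per loop. Over loops with 10 or more PETs, the chi-square statistic per degree of freedom between the 2 libraries was 1.01 for ARID1A (p = 0.184), 1.00 for H3K27ac at day 3 (p = 0.352) and 1.04 at day 0 (p = 0.000441). Summed by left anchor the pairs did differ (chi-square p = 0.0135, 0.00771 and 7.76e-07 in that order), and by span class the statistic per degree of freedom was 1.59, 30.5 and 7.14 (p = 0.121, 3.02e-48 and 1.72e-09), so the H3K27ac pairs differed in their spans. They were counted as separate libraries. No label says that they came from separate cultures, so the p-values below measure only the spread between these libraries, and with each pair counted as 1 library no test could be made.

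RefSeq's promoter table for GRCh38.p14 held 7 of the 8 genes in 15 windows of 300 bases, and SMARCC1 was not among them. Because the series concerns AP-1 and SWI/SNF is often recruited beside AP-1, a factor that binds TGANTCA, and because related factors bind TGANNTCA, both motifs were searched on both strands; both are palindromic in their fixed letters and the search allowed overlaps. TGANTCA was found in 2 of the 15 windows, those of SMARCB1 (as TGAGTCA from base 88) and of the first start of SMARCA2 (as TGACTCA from base 261), against 7.71% of all 35116 windows. TGANNTCA was found in 1 window, the first of SMARCA2 (as TGAAGTCA from base 209), against 11.5% of all windows. A match describes letters and is not evidence of binding. The 250 bases upstream of the start are shown for the 2 genes without a listed loop, for the 2 genes with the highest H3K27ac contacts per length at day 3, and for an internal SMARCD3 start that lies within reach of that gene's H3K27ac anchor. Capitals mark a motif match, and the SMARCA2 match from base 261 lies beyond the 250 bases printed. They lie at chr22:23786716-23786965 (plus strand), chr9:2015097-2015346 (plus), chr19:10960780-10961029 (plus), chr1:26695765-26696014 (plus) and chr7:151248695-151248944 (minus), all in GRCh38.p14 and printed 5′ to 3′.
SMARCB1: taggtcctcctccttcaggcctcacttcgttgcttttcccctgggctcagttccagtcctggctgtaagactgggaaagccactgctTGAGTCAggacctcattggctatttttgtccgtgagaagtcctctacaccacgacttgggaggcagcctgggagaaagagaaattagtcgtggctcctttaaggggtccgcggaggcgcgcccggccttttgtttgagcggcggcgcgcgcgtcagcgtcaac
SMARCA2, first start: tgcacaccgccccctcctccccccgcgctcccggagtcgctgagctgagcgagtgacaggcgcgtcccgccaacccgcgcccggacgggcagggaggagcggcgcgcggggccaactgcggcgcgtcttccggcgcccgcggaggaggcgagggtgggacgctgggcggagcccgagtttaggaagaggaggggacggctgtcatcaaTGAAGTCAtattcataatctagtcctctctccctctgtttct
SMARCA4, first start: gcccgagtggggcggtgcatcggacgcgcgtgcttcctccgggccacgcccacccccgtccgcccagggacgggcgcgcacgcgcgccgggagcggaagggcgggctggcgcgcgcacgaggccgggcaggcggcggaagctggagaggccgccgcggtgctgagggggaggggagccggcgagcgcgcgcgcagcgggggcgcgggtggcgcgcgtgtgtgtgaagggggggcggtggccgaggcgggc
ARID1A: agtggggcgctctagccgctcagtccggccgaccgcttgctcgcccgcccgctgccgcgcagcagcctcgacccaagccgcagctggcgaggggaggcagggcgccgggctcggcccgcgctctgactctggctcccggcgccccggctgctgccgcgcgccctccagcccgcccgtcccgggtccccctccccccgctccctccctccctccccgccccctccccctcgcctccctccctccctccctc
SMARCD3, internal start: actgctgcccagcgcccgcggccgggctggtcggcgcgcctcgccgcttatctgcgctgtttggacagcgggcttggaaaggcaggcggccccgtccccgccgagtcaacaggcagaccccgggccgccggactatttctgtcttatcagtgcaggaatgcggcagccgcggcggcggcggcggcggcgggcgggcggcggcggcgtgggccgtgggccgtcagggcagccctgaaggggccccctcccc

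In CPM, a gene's PETs scaled to the same total of listed PETs in every library, and per 100 kb of gene window, the ARID1A gene had the densest contacts in every group, at 941 ± 76.3 in ARID1A HiChIP, 1268 ± 25.9 in H3K27ac at day 3 and 929 ± 18.5 at day 0 (SD, n = 2 throughout). In the ARID1A HiChIP, SMARCC1 (296 ± 0.53) and SMARCA4 (265 ± 24.6) came next, followed by PBRM1 (186 ± 39.6), SMARCD3 (118 ± 59.1) and ARID1B (70.0 ± 0.70). The libraries of PBRM1 and SMARCD3 overlapped there, at 158 to 214 and 76.3 to 160, and the lower SMARCD3 library lay just above ARID1B. H3K27ac at day 3 gave a wider order, with SMARCA4 at 470 ± 4.5, SMARCD3 at 218 ± 0.88, PBRM1 at 178 ± 2.3, SMARCC1 at 70.6 ± 1.5 and ARID1B at 50.7 ± 3.2. At day 0 SMARCD3 stood second at 502 ± 8.7, ahead of SMARCA4 at 272 ± 14.6, but this place rested on an anchor reaching 136 bp into the flank. Without flanks SMARCD3 had 156 and 165 CPM per 100 kb at day 0. SMARCC1 (64.9 ± 10.6) and PBRM1 (54.9 ± 22) could not be ordered at day 0, and ARID1B was lowest at 9.84 ± 1.21.

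**Figure D1:**
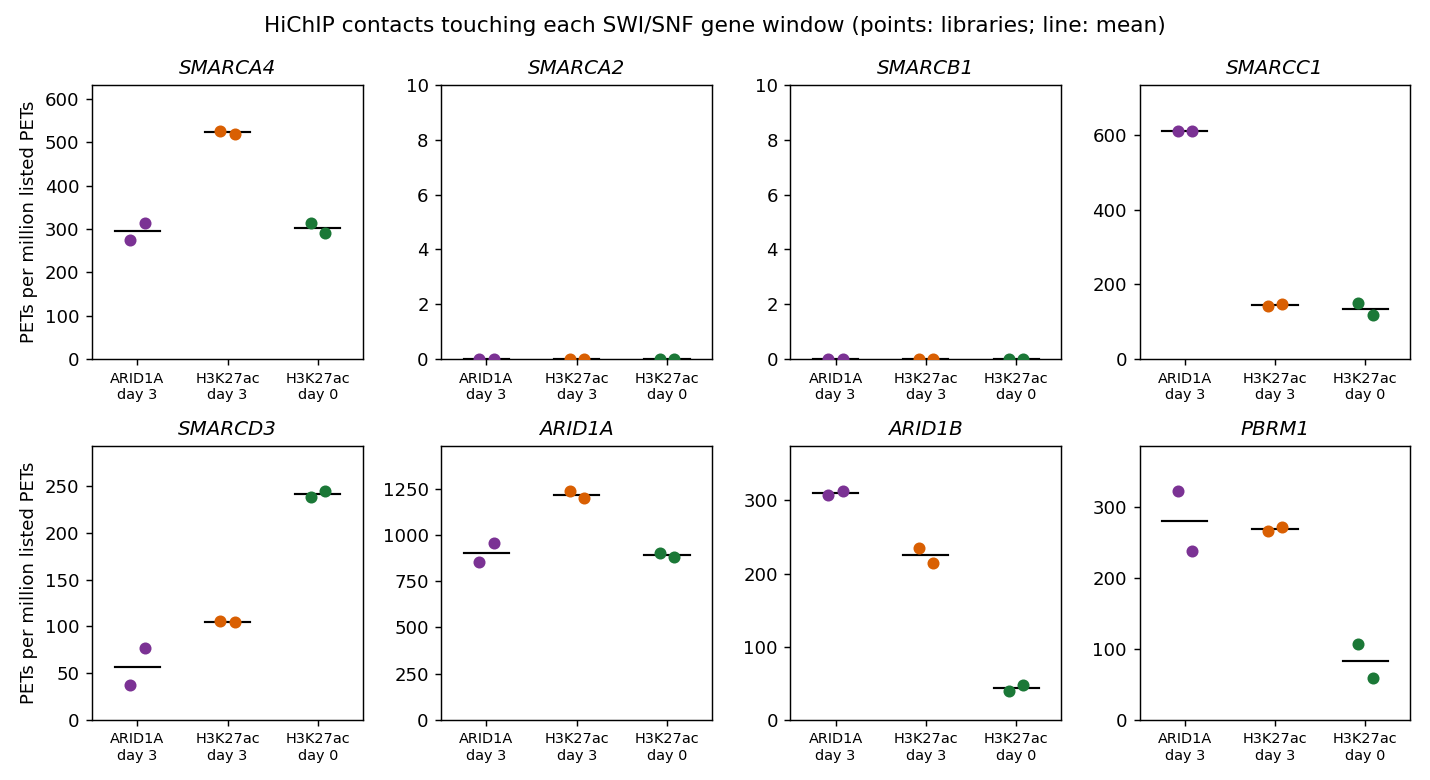
Contacts touching each gene window, in CPM, by group; each panel has its own axis from 0, points are libraries and lines are means. SMARCC1 is highest in ARID1A HiChIP, ARID1B and PBRM1 are lowest at day 0, SMARCD3 is highest at day 0 with its flanks (without them it has 105 and 105 CPM at day 3 against 59.7 and 63.1 at day 0), and SMARCA2 and SMARCB1 lie at 0 in all 6 libraries.

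Changes were tested with edgeR's quasi-likelihood test, fitted to the PETs of gene windows together with 100 kb tiles of the rest of the genome, for windows with an anchor in both groups. Between H3K27ac at day 3 and day 0, 4 of the 6 tested gene windows were called at a Benjamini-Hochberg adjusted p under 0.05, 3 higher and 1 lower, where 64.6% of all 5118 windows were called (33.3% higher and 31.3% lower). Between ARID1A and H3K27ac at day 3, 5 of 6 were called, 2 higher and 3 lower, where 80.0% of 7567 windows were called (39.2% higher and 40.8% lower). The median log2 change of the 6 was 0.30 in the first comparison, against 0.05 over all windows, and -0.30 in the second, against -0.07. The comparisons share the day 3 H3K27ac libraries.

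The same test was run on merged anchors, which join overlapping anchors of all files, with PETs summed over loops whose anchors were called in both groups. At the genes, 5 of 10 tested anchors were called between H3K27ac day 3 and day 0 (background 39.5% of 6251), 4 higher and 1 lower. Between ARID1A and H3K27ac at day 3 it was 10 of 18 (background 64.0% of 11052), 5 each way. Of the loops at the genes, 10 of 61 were called in the first comparison, 8 higher and 2 lower (background 15.0% of 16642, 8.35% higher and 6.70% lower), and 32 of 92 in the second, 9 higher and 23 lower (background 33.3% of 28338, 14.5% higher and 18.8% lower). The second split was 6 higher and 3 lower without ARID1A replicate 1, 3 and 4 with DESeq2, and 0 and 8 with anchors of similar width, where the anchors split into 0 higher and 4 lower. Over all tested loops the shares were 8.01% higher and 4.98% lower with DESeq2, and 7.38% and 8.60% with similar width. Over all anchors of similar width they were 21.9% and 22.1%. In 18 of the 23 lower loops no ARID1A library reached 4 PETs, so H3K27ac alone met the filter of 4 PETs in 2 libraries. Some of the other lower loops also needed H3K27ac PETs to pass. Each of the 9 higher ones had a library at 4 or more in both groups, so the 2 counts cannot be set against each other. The shares of loops, 16.4% and 34.8%, lay near the background. These directions are relative to the median feature. Scaling by total listed PETs moved the median log2 change by 0.32 and 0.11 for windows, -0.50 and -0.61 for anchors and -0.46 and -0.56 for loops. The anchors at the genes then split into 2 higher and 4 lower in the first comparison and 2 and 8 in the second, and the loops into 2 and 6 and into 5 and 38. Over all anchors 7.84% were then higher and 47.3% lower in the first comparison, and 16.6% and 52.6% in the second. Over all loops it was 4.11% and 17.5%, and 9.38% and 35.4%.

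**Figure D2:**
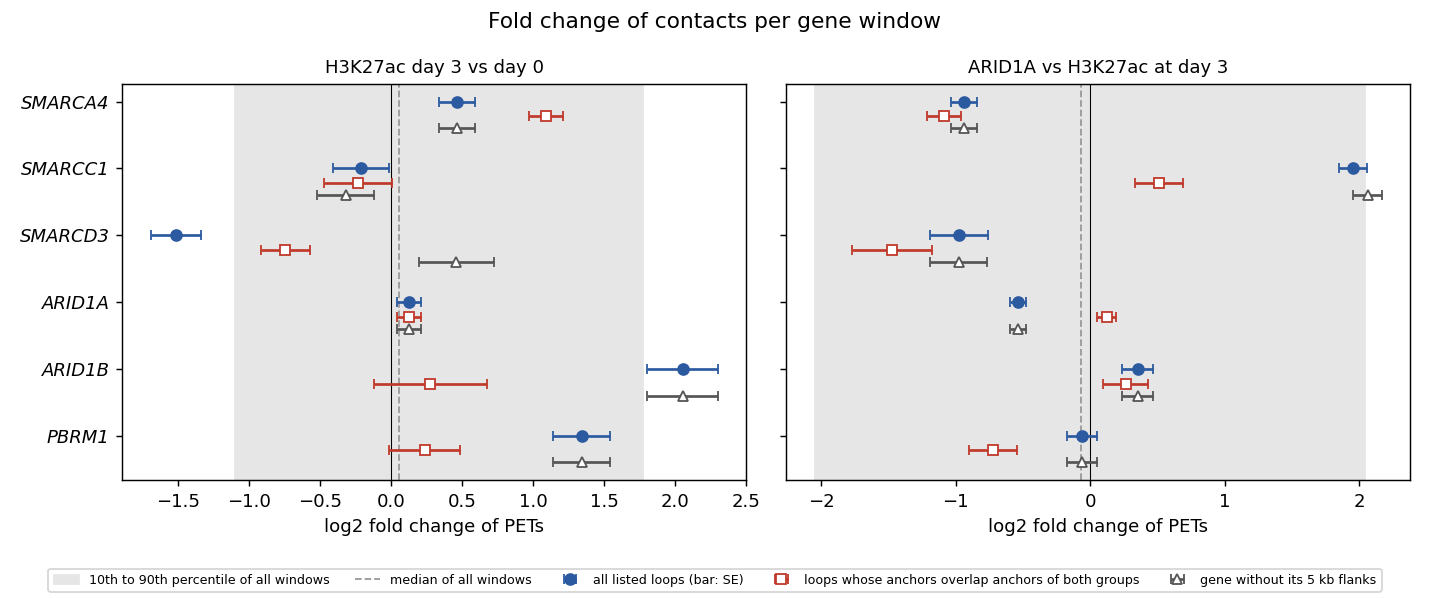
Log2 fold change of PETs per gene window, with its standard error, from all listed loops (circles), from loops whose anchors overlap anchors of both groups (squares) and for the gene without its flanks (triangles). The grey band spans the 10th to 90th percentile of all windows; the circles of SMARCD3 and ARID1B lie outside it on the left panel, ARID1B moves to 0.28 with shared anchors and SMARCD3 to 0.46 without flanks.

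Merging overlapping anchors of all 6 files gave 38 merged anchors at the 8 genes, out of 30001 in all. Of the 38, 12 overlapped anchors of all 3 groups (19.3% of all merged anchors did), 7 of ARID1A and H3K27ac at day 3 (21.7%), 14 of ARID1A only (43.9%) and 5 of H3K27ac at day 3 only (8.90%). None was called in H3K27ac at day 0 without also being called in H3K27ac at day 3. Of all merged anchors, 1.34% were called at day 0 only and 0.890% at day 0 and in ARID1A. The ARID1A anchors without an H3K27ac anchor lay within gene bodies or at 3′ ends, apart from 1 near the 5′ end of SMARCD3.

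**Figure D3:**
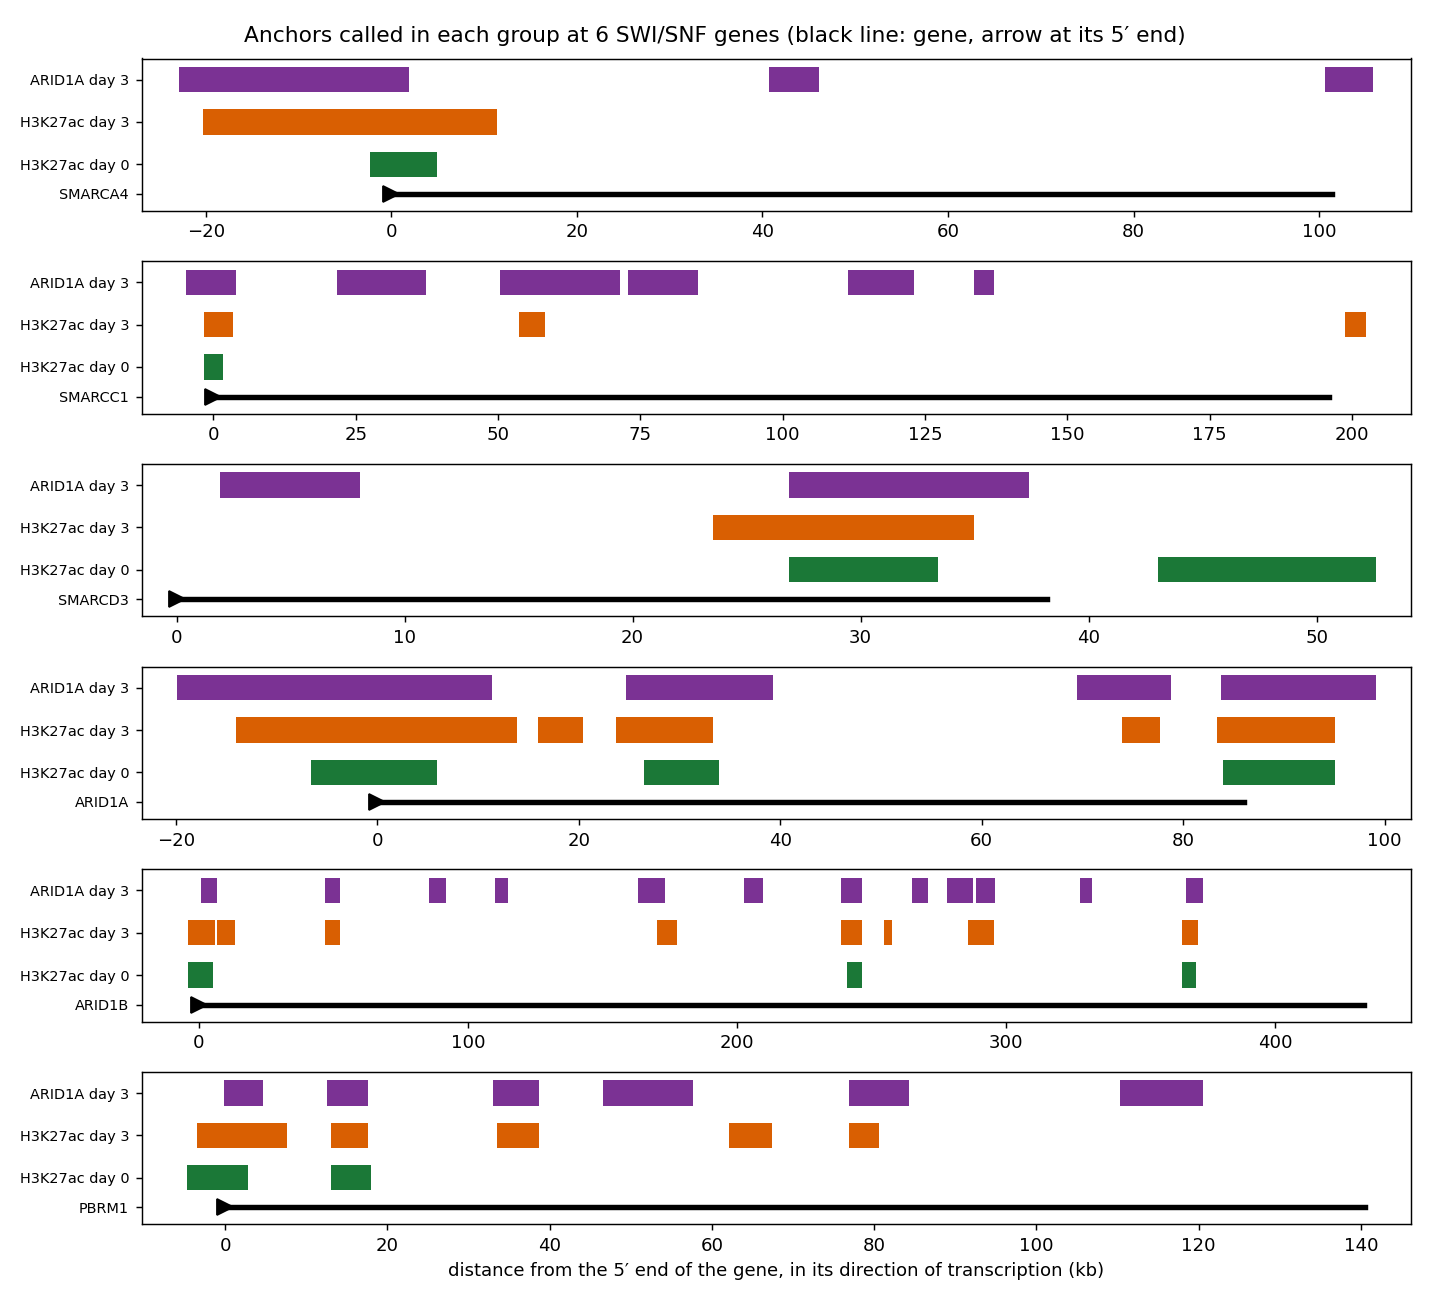
Anchors of each group at the 6 genes with listed loops, in kb from the 5′ end along the direction of transcription; the black line is the gene. ARID1A has 12 anchors at ARID1B against 8 and 3 for H3K27ac at day 3 and day 0, and 6 at SMARCC1 against 3 and 1.

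The share of a gene's PETs with an anchor within 5 kb of the 5′ end was lower in ARID1A HiChIP than in any H3K27ac library at 5 of the 6 genes with listed loops, and higher at SMARCD3, with 33.3% ± 11.8 against 0% in all 4 H3K27ac libraries. H3K27ac had no anchor there at SMARCD3 and no other anchor at SMARCA4 or, at day 0, at SMARCC1, which fixed those shares at 0% and 100%. For SMARCC1 the share was 20.1% ± 1.3 in ARID1A HiChIP, 76.3% ± 1.6 in H3K27ac at day 3 and 100% in both day 0 libraries. PBRM1 had 19.2% ± 0.88 for ARID1A, 65.9% ± 0.41 for H3K27ac at day 3 and 96.7% ± 4.7 at day 0, and ARID1B had 18.2% ± 0.41, 62.2% ± 2.2 and 79.2% ± 5.9 in the same groups. The ARID1A gene (52.1% ± 0.28 for ARID1A, 66.5% ± 0.75 for H3K27ac at day 3 and 66.5% ± 5.9 at day 0) and SMARCA4 (77.7% ± 2.1, with 100% in all 4 H3K27ac libraries) differed less. An exact permutation test of 2 against 2 libraries cannot give a two-sided p below 0.33. At SMARCA4, SMARCC1, ARID1B and PBRM1 the share was lower where more anchors were called. The ARID1A gene did not follow this order, with 4 anchors in ARID1A HiChIP against 5 and 3 for H3K27ac at day 3 and day 0. The part of anchor number in these shares was not tested. Such shares were not computed for other genes, so the count of 5 of 6 has no background and is not known to be particular to these genes.

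**Figure D4:**
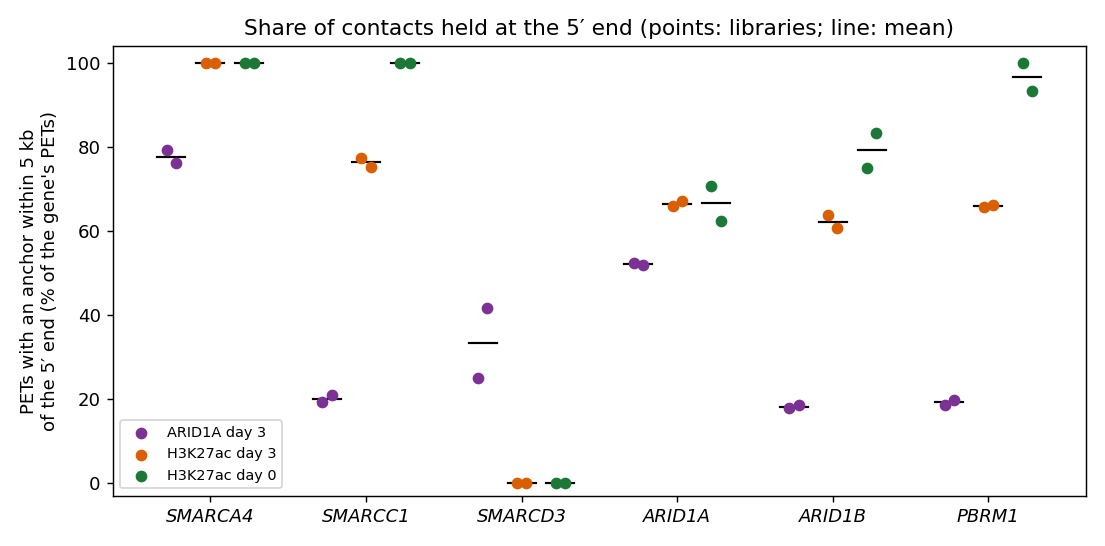
Share of each gene's PETs with an anchor within 5 kb of the 5′ end, in percent, at the 6 genes with listed loops; points are libraries and lines are means. ARID1A HiChIP lies lowest at 5 genes, and at SMARCD3 it lies above H3K27ac, which has 0%.

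SMARCA4, the ATPase on chromosome 19 (11071598 to 11172958 in hg19, plus strand), had 120 and 147 PETs in ARID1A HiChIP, 490 and 511 in H3K27ac at day 3 and 95 and 74 at day 0. Scaled to library totals these were 276 and 314 CPM for ARID1A, 527 and 520 for H3K27ac at day 3 and 315 and 292 at day 0. Both day 3 H3K27ac libraries stood above the other 4, which overlapped. The window rose at day 3 by 0.46 ± 0.13 on the log2 scale (edgeR quasi-likelihood test, adjusted p = 0.000466), and was lower in ARID1A HiChIP than in H3K27ac at day 3 by a log2 fold of -0.94 ± 0.10 (adjusted p = 2.27e-20). With 25 kb added on each side the day 3 change was -0.00.

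All H3K27ac contacts of SMARCA4 ran from a single anchor over its 5′ end. That anchor was called 31734 bp wide at day 3 and 7128 bp wide at day 0, where a second day 0 anchor lay upstream under the same merged anchor (11746 bp called in all). Over loops measured in both groups the merged anchor held 414 and 414 PETs at day 3 against 90 and 76 at day 0, a log2 rise of 1.04 ± 0.12 (edgeR, adjusted p = 8.33e-14). It held 57 and 69 PETs in ARID1A HiChIP against 451 and 462 in H3K27ac at day 3, and was lower in ARID1A by a log2 fold of -1.16 ± 0.13 (adjusted p = 7.38e-19). Both directions were kept with library totals, at 0.53 and -1.77, and wider calling moved with the rise; its part was not tested. ARID1A HiChIP had 2 further anchors, 40.7 to 46.1 kb into the gene and 101 to 106 kb from its 5′ end, where H3K27ac had none.

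Of 14 SMARCA4 loops tested between day 3 and day 0, 4 rose at day 3 and none fell (background 8.35% higher and 6.70% lower). One of them ran from the 5′ anchor over 245 kb, with 6 and 8 PETs in ARID1A HiChIP, 37 and 43 in H3K27ac at day 3 and 7 and 3 at day 0. It rose at day 3 by 1.67 ± 0.42 on the log2 scale (edgeR, adjusted p = 0.00120), while its difference between ARID1A and H3K27ac (-0.86 ± 0.38, adjusted p = 0.0714) was not called. Against H3K27ac at day 3, 7 of 18 SMARCA4 loops were lower in ARID1A HiChIP and none was higher (background 18.8% lower and 14.5% higher). However, 6 of the 7 reached the filter in H3K27ac alone. The largest fold with PETs in every library was a loop of 87.8 kb upstream of the gene, with 2 and 2 ARID1A PETs against 31 and 40 for H3K27ac (-2.46 ± 0.56, adjusted p = 0.000118). It was 1 of these 6, so it was tested only because H3K27ac was high there.

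SMARCA2, the alternative ATPase (chr9:2015342-2193624, plus strand), had no listed loop in any of the 6 libraries. No H3K27ac anchor was called on chromosome 9 before 2723377 at day 3 or before 2842286 at day 0, which is 530 kb and 649 kb beyond the gene. ARID1A anchors flanked it at 428769 and 2410206, leaving 1981 kb without an anchor. Among the spaces between anchors of all groups joined, 0.655% were as long or longer (195 of 29760). No loop in any library crossed the gene. SMARCA2 contacts were therefore not measured here.

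SMARCB1, the core subunit that the line lacks and that doxycycline switched on from an inducible copy (gene at chr22:24129150-24176705, plus strand), also had 0 listed loops in all 6 libraries, at day 3 as at day 0. The anchor-free stretch around the gene ran for 759 kb in ARID1A HiChIP, 766 kb in H3K27ac at day 3 and 778 kb at day 0. With anchors of all groups joined it ran from 23905194 to 24653341, or 748 kb. On chromosome 22, 5 of 622 such spaces were as long or longer, and in the genome 2.10% of 29760. Here the labelled state of the gene cannot be checked from its contacts.

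Loops did cross the stretch. ARID1A HiChIP had 22 and 21 such loops with 28 and 26 PETs, H3K27ac at day 3 had 60 and 53 with 169 and 144 PETs, and day 0 had 11 and 11 with 24 and 18 PETs. Each crossing loop held 2.82 and 2.72 PETs on average in H3K27ac at day 3, against 1.75 and 1.76 in other loops of the same range of spans in the same libraries. Crossing loops with 5 or more PETs made up 16.7% and 17.0% in H3K27ac at day 3, against 4.36% and 4.49% of the others. They made up 9.09% and 0% at day 0, against 3.49% and 2.97%. In ARID1A HiChIP they made up 0% in both libraries, against 0.43% and 0.56%. At day 0 the mean was 2.18 and 1.64 PETs, against 1.69 and 1.65 for other loops, and in ARID1A HiChIP it was 1.27 and 1.24, against 1.15 and 1.19. The share of crossing loops with the deposited value of 0.01 or less was 22.7% and 19.0% in ARID1A HiChIP (10.8% and 13.1% of other loops), 56.7% and 50.9% in H3K27ac at day 3 (32% in both) and 54.5% and 36.4% at day 0 (27.1% and 26.8%). By that measure the crossing loops lay above the other loops in all 6 libraries, a description with no test. The range of spans was wide, 776 to 1965 kb in H3K27ac at day 3 replicate 1, and loops were not matched by span within it. A strong example joined chr22:23854307-23867315 to chr22:24664691-24672310 over 808 kb with 12 and 11 PETs at day 3. Whether the stretch is present in the genome of this line was not tested.

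**Figure D5:**
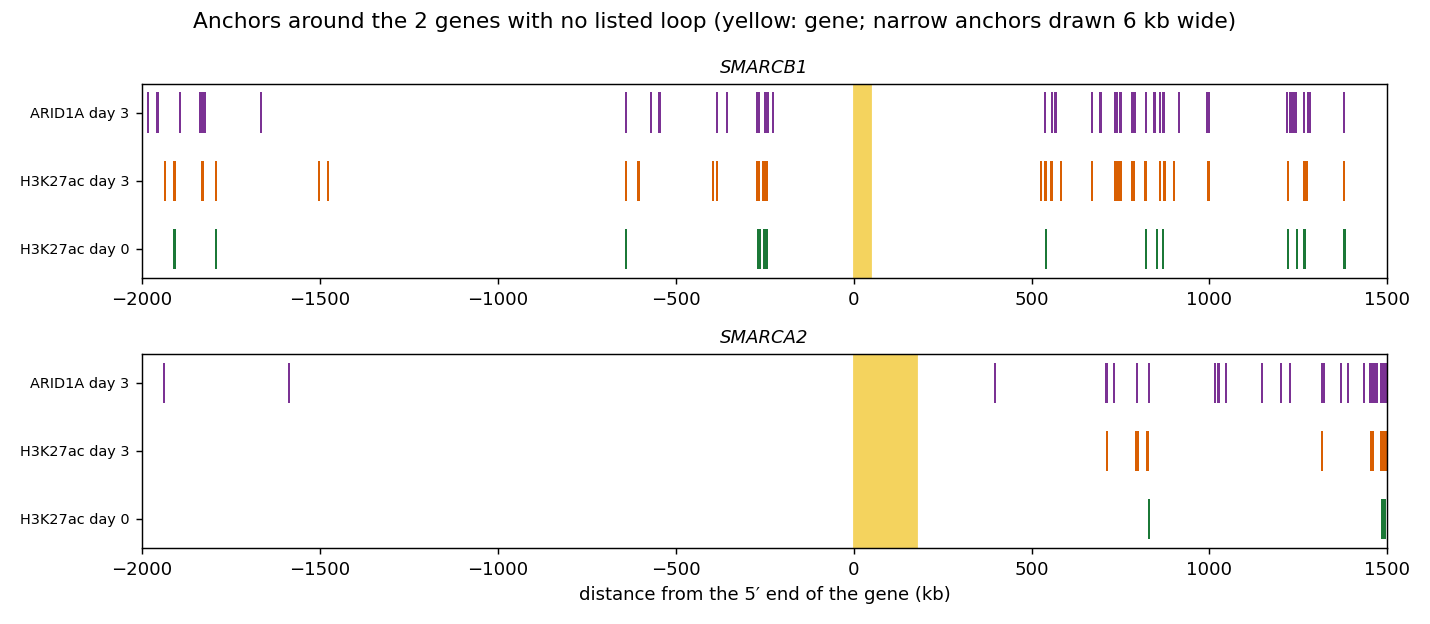
Anchors of each group around SMARCB1 and SMARCA2, in kb from the 5′ end of the gene (yellow). Anchors stand on both sides of SMARCB1 in every group with 748 kb free of any between them, and no H3K27ac anchor stands before SMARCA2.

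SMARCC1, a core scaffold subunit (chr3:47627378-47823405, minus strand), carried more contacts in ARID1A HiChIP. It had 266 and 285 PETs there, 133 and 145 in H3K27ac at day 3 and 45 and 30 at day 0, or 611 and 610 CPM, 143 and 148 CPM and 149 and 118 CPM in that order of groups. The ARID1A libraries stood far above the other 4, and the H3K27ac groups overlapped. The window was higher in ARID1A than in H3K27ac at day 3 by 1.96 ± 0.11 on the log2 scale (edgeR, adjusted p = 1.13e-62), near the 90th percentile of all windows at 2.04. It was not called between day 3 and day 0 (-0.21 ± 0.20, adjusted p = 0.345), and with library totals that value turned to 0.11. With 25 kb added on each side it was -0.55 and called (adjusted p = 0.000371).

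Most of the SMARCC1 difference lay at anchors inside the gene. ARID1A anchors covered 72875 bp of or beside SMARCC1 in 6 anchors, against 13238 bp in 3 for H3K27ac at day 3 and 3351 bp in 1 at day 0. Of its 7 merged anchors, 4 were called for ARID1A only. The strongest loop joined 2 neighbouring intragenic anchors, chr3:47738250-47750526 and chr3:47751894-47773013, with 23 and 43 ARID1A PETs; H3K27ac had no anchor at the first of them. Another joined the second of these to chr3:47786000-47801752 with 23 and 33 ARID1A PETs, and H3K27ac had no anchor at its far end. Both ends of a loop lay within the SMARCC1 window for 39.8% and 48.1% of ARID1A PETs, 6.77% and 5.52% of H3K27ac PETs at day 3, and 0% at day 0.

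Where both groups had anchors, the SMARCC1 difference was smaller. Restricted to loops with anchors of both groups, its log2 fold was 0.51, which was still called. The intragenic anchor shared with H3K27ac, 50.4 to 71.5 kb from the 5′ end, had 35 and 30 PETs for ARID1A against 25 and 29 for H3K27ac and was higher by 1.96 ± 0.28 (adjusted p = 7.43e-12); it was called 21119 bp wide for ARID1A and 4561 bp for H3K27ac. A loop from there to the 5′ anchor had 8 and 8 PETs for ARID1A against 6 and 4 for H3K27ac (2.29 ± 0.64, adjusted p = 0.00217). The 5′ anchor itself was not called in either comparison, at -0.26 ± 0.23 between ARID1A and H3K27ac (21 and 28 against 94 and 96 PETs, adjusted p = 0.33) and -0.28 ± 0.25 between day 3 and day 0 (47 and 61 against 30 and 24 PETs, adjusted p = 0.393). Scaled by library totals, both were called lower, at -0.87 and -0.78.

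SMARCD3, a core subunit known from mouse heart and muscle development (chr7:150936059-150974231, minus strand), had 16 and 36 PETs in ARID1A HiChIP, 98 and 103 in H3K27ac at day 3 and 72 and 62 at day 0. In CPM these were 36.8 and 77.0 for ARID1A, 105 and 105 for H3K27ac at day 3 and 239 and 245 at day 0, so no groups overlapped. The window fell at day 3 by a log2 fold of -1.52 ± 0.18 on the log2 scale (edgeR, adjusted p = 5.18e-17) and was lower in ARID1A than in H3K27ac at day 3 by a log2 fold of -0.98 ± 0.21 (adjusted p = 1.04e-05). Without ARID1A replicate 1 the second value was -0.53 and not called. Without the 5 kb flanks the first value turned to 0.46 and was not called (adjusted p = 0.117).

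The sign rested on an anchor beyond the 3′ end. At day 0 it ended at 150931195 and reached 136 bp into the flank, with 64 and 52 PETs (212 and 205 CPM). At day 3 it was called to 150926078, 9.98 kb from the gene and outside the window, with 62 and 80 PETs (66.7 and 81.5 CPM). The PETs touching the gene without flanks were 98 and 103 at day 3 and 18 and 16 at day 0, or 105 and 105 CPM against 59.7 and 63.1 CPM. Tested as merged anchors, the one beyond the 3′ end fell at day 3 by a log2 fold of -1.08 ± 0.19 (adjusted p = 5.71e-07), and the intragenic one rose by 1.24 ± 0.26 (adjusted p = 1.96e-05). The fall was also present with library totals, at -1.59, and the rise at 0.74. The anchors were called 4440 and 11435 bp wide at day 3 against 9557 and 6540 bp at day 0, and the part of width was not tested.

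The intragenic SMARCD3 anchor lay 23.5 to 37.4 kb from the 5′ end of the interval, and RefSeq's internal start, shown above, lies 28.5 kb from its first start. H3K27ac had no anchor within 5 kb of the 5′ end. ARID1A had 1 there, 1.90 to 8.05 kb into the gene, with 4 and 15 of its 16 and 36 PETs. Loops from the intragenic and 3′ anchors to the same distant segment moved in opposite directions. To chr7:150771919-150790331, the intragenic anchor had 17 and 15 PETs at day 3 against 1 and 1 at day 0 (2.60 ± 0.82, adjusted p = 0.0151). To that same segment the 3′ anchor had 13 and 9 PETs at day 3 against 19 and 14 at day 0 (-1.88 ± 0.40, adjusted p = 8.52e-05). A loop from the intragenic anchor over 495 kb had 21 and 14 PETs at day 3 against 1 and 2 at day 0 (2.18 ± 0.72, adjusted p = 0.023). Both loops of the intragenic anchor reached the filter at day 3 alone. In ARID1A HiChIP these 3 loops had 1 and 1, 0 and 0, and 0 and 1 PETs. The second strongest SMARCD3 loop, 17.3 kb between the 3′ and intragenic anchors, had 1 and 4 PETs in ARID1A HiChIP, 11 and 16 in H3K27ac at day 3 and 10 and 6 at day 0 and was called in neither comparison (adjusted p = 0.413 and 0.487).

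The ARID1A gene, whose product is the BAF subunit precipitated here (chr1:27022522-27108601, plus strand), had 371 and 447 PETs in ARID1A HiChIP, 1148 and 1179 in H3K27ac at day 3 and 273 and 223 at day 0. These were 852 and 956 CPM for ARID1A, 1236 and 1200 for H3K27ac at day 3 and 905 and 880 at day 0. The day 3 H3K27ac libraries stood above the rest. After TMM scaling the day 3 change was 0.13 ± 0.08 on the log2 scale and not called (edgeR, adjusted p = 0.170), and with library totals it was 0.45 and called. The window was lower in ARID1A than in H3K27ac at day 3 by a log2 fold of -0.54 ± 0.06 (adjusted p = 8.00e-18), and with shared anchors only it was 0.12.

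Its 5′ anchor and its other anchors differed in opposite directions between ARID1A and H3K27ac at day 3. The 5′ anchor had 151 and 175 PETs for ARID1A against 682 and 690 for H3K27ac and was lower by a log2 fold of -0.38 ± 0.09 (adjusted p = 7.51e-05). The anchor 23.7 to 39.3 kb into the gene had 66 and 99 against 143 and 153 PETs and was higher by 0.85 ± 0.15 (adjusted p = 4.38e-08). The anchor at 69.4 to 78.8 kb had 48 and 69 against 82 and 87 and was higher by 1.16 ± 0.18 (adjusted p = 1.49e-09). The anchor over the 3′ end had 81 and 116 against 258 and 255 and was higher by 0.31 ± 0.13 (adjusted p = 0.0217), which turned to -0.30 with library totals and was called in 3 of 11 alternatives. The anchor at 23.7 to 39.3 kb was not called with library totals (0.24, adjusted p = 0.131).

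Of 40 tested loops of the gene, 8 were higher and 9 lower in ARID1A HiChIP (background 14.5% higher and 18.8% lower). All 9 lower loops ran from the 5′ anchor and spanned 137 to 876 kb. The 8 higher ones spanned 17.1 to 167 kb, and 1 of them ran from the 5′ anchor. The loop between the 2 intragenic anchors had 8 and 16 PETs for ARID1A against 4 and 4 for H3K27ac (3.18 ± 0.58, adjusted p = 7.82e-07). A loop from the 5′ anchor over 324 kb had 8 and 3 PETs for ARID1A against 52 and 62 (-1.71 ± 0.38, adjusted p = 9.70e-05), and 4 of the 9 lower loops had no ARID1A PET. In 6 of the 9 no ARID1A library reached 4 PETs, so they passed the filter through H3K27ac alone. The loop over 324 kb and one over 137 kb (3 and 5 ARID1A PETs) also needed H3K27ac PETs to pass.

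Between day 3 and day 0 of H3K27ac, the 5′ anchor of the ARID1A gene had 511 and 504 against 189 and 137 PETs. It was higher by 0.36 ± 0.10 (edgeR, adjusted p = 0.00157), but turned to -0.14 with library totals. The call held in 6 of 10 alternatives and was lost with DESeq2 (adjusted p = 0.0740). It was called 31534 bp wide at day 3 and 12527 bp at day 0. The strongest loop of the gene, from the 5′ anchor over 72.1 kb, had 35 and 34 PETs for ARID1A, 78 and 64 for H3K27ac at day 3 and 50 and 29 at day 0. It was not called at day 3 (-0.46 ± 0.21, adjusted p = 0.119) and was higher in ARID1A than in H3K27ac (0.61 ± 0.22, adjusted p = 0.0202). The second strongest, to the anchor over the 3′ end, had 14 and 31, 76 and 73, and 32 and 24 PETs in that order of groups and was called in neither comparison (adjusted p = 0.817 and 0.835). Of 24 tested loops of this gene, 2 were called at day 3, both higher and from the 5′ anchor (background 8.35% higher and 6.70% lower). The one over 175 kb had 71 and 78 against 11 and 19 PETs (1.00 ± 0.27, adjusted p = 0.00349).

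ARID1B, the alternative large BAF subunit (chr6:157099064-157531913, plus strand), had 134 and 146 PETs in ARID1A HiChIP, 218 and 211 in H3K27ac at day 3 and 12 and 12 at day 0. In CPM these were 308 and 312 for ARID1A, 235 and 215 for H3K27ac at day 3 and 39.8 and 47.3 at day 0, with no overlap of groups. The window rose at day 3 by 2.05 ± 0.25 on the log2 scale (edgeR, adjusted p = 1.54e-15), above the 90th percentile of all windows at 1.77. It was higher in ARID1A than in H3K27ac at day 3 by 0.35 ± 0.11 (adjusted p = 0.00299). With loops of the deposited value of 0.01 or less only, the second value turned to -0.64, and it was not called with shared anchors only (0.26) or without either H3K27ac library (0.12 and 0.25).

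The day 3 rise at ARID1B moved with the anchors called. Only 17.0% and 9.48% of its day 3 PETs joined segments with an anchor at both ends at day 0, and with shared anchors only the change was 0.28 and not called. Its 5′ anchor had 29 and 17 PETs at day 3 against 6 and 10 at day 0 over shared loops (0.24 ± 0.41, adjusted p = 0.675). The strongest loop at day 3 was short, 8.61 kb from the 5′ anchor to the adjoining anchor, with 44 and 40 PETs, and the adjoining segment had no anchor in the other 2 groups. The next, over 93.0 kb upstream, had 19 and 32 PETs at day 3, and its upstream end had no anchor in the other groups. ARID1A HiChIP spread over 12 anchors, 5 of them without H3K27ac, and 67.9% and 67.1% of its PETs stayed within the window, against 61.5% and 49.8% for H3K27ac at day 3. Of 5 ARID1B anchors tested between ARID1A and H3K27ac, 1 was called, as higher (background 31.5% higher and 32.5% lower). It lay 163 to 178 kb into the gene, with 17 and 10 against 16 and 20 PETs (1.27 ± 0.38, edgeR, adjusted p = 0.00167). It was called in 5 of 8 alternatives and not with library totals (0.66, adjusted p = 0.100). The 5′ anchor had 15 and 12 against 66 and 47 PETs and was not called (-0.37 ± 0.31, adjusted p = 0.289).

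PBRM1, the bromodomain subunit of PBAF (chr3:52579368-52719866, minus strand), had 140 and 111 PETs in ARID1A HiChIP, 247 and 266 in H3K27ac at day 3 and 32 and 15 at day 0. In CPM these were 322 and 237 for ARID1A, 266 and 271 for H3K27ac at day 3 and 106 and 59.2 at day 0. ARID1A and H3K27ac at day 3 overlapped, and day 0 was lower than both. The window rose at day 3 by 1.34 ± 0.20 on the log2 scale (edgeR, adjusted p = 9.28e-11), 1.87 without day 0 replicate 1 and 0.98 without replicate 2. Between ARID1A and H3K27ac at day 3 it was not called (-0.06 ± 0.11, adjusted p = 0.628), but with 25 kb added on each side (-0.47, adjusted p = 5.79e-06) and with shared anchors only (-0.72, adjusted p = 0.000210) it was called lower.

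As at ARID1B, the PBRM1 rise moved with the anchors called, which numbered 5 at day 3 and 2 at day 0. With shared anchors only it was 0.24 and not called, nor was it with loops of the deposited value of 0.01 or less (0.86). The 5′ anchor had 59 and 58 PETs at day 3 against 32 and 14 at day 0 over shared loops (0.07 ± 0.26, adjusted p = 0.855). The anchor 12.6 to 18.0 kb into the gene had 13 and 15 against 2 and 1 PETs. It reached the filter of 10 PETs at day 3 alone, and its call (1.89 ± 0.70, adjusted p = 0.0236) held in 3 of 7 alternatives and was lost with library totals (adjusted p = 0.0987) and without either day 0 library (0.0906 and 0.158).

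Parts of the PBRM1 window differed between ARID1A and H3K27ac although its total was not called. At the 5′ anchor ARID1A HiChIP had 13 and 15 PETs against 132 and 153 for H3K27ac at day 3, lower by a log2 fold of -1.65 ± 0.25 (adjusted p = 2.17e-10). The other 3 anchors tested were not called, with log2 folds of 0.64, 0.03 and 0.19. ARID1A HiChIP kept 42.9% and 48.6% of its PETs within the window, against 18.2% and 16.2% for H3K27ac. The strongest PBRM1 loop, from the 5′ anchor over 152 kb, had 6 and 2 ARID1A PETs against 32 and 53 (-1.74 ± 0.44, adjusted p = 0.000809). A loop over 404 kb had 0 and 0 ARID1A PETs, 10 and 14 for H3K27ac at day 3 and 11 and 3 at day 0. Of 11 tested PBRM1 loops, 3 were called between ARID1A and H3K27ac, all lower in ARID1A HiChIP (background 18.8% lower and 14.5% higher). In 2 of them no ARID1A library reached 4 PETs, and all 3 needed H3K27ac PETs to pass the filter.

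Over the 6 genes, the 23 loops called lower in ARID1A HiChIP than in H3K27ac at day 3 spanned 43.1 to 876 kb, and 11 of them had no ARID1A PET. The 9 called higher spanned 17.1 to 167 kb. All 92 tested loops spanned 13.8 to 1833 kb, with a median of 197 kb, and 13 had no ARID1A PET. A 5′ anchor was an end of 20 of the 23 lower loops, 2 of the 9 higher ones and 57 of all 92. In 18 of the 23 lower loops H3K27ac alone met the filter, so the spans of the 2 sets cannot be set against each other. Without a filter edgeR called 0 of 463 loops at the genes. The loops share anchors and are not independent of each other. At least 1 anchor of each of the 9 higher loops was called over 1.5 times wider for ARID1A than for H3K27ac, as was one of 45 of the 92 tested loops, and the part of width was not tested.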

How the data were processed

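HiChIP was done on G401 cells in 3 groups of 2 libraries, grouped by sample title; reads were paired, each of 150 bp. The tools HiC-Pro, Bowtie2 and the build hg19 are named, without versions, per the submitters' processing notes; the loop caller is not given in the sources used here. The deposited counts are raw PETs per pair of anchors. The deposited value from 0 to 1 carries no column name and could be a p-value or q-value; it served only as a threshold of 0.01 in an alternative. Whether coordinates count from 0 or 1 is not stated.

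The members and lists were chosen with earlier results of these data known. Each gene's PETs were summed over rows touching its interval with 5 kb on each side. The strand came from RefSeq where listed; that of SMARCC1 was set by hand. The 51970 distinct anchors, merged where they overlapped by 1 bp, became 30001 merged anchors. Windows, merged anchors and loops were tested with edgeR 4.0.16 (quasi-likelihood, TMM within the tested set, Benjamini-Hochberg over all) in R 4.3.3, needing 10 PETs (loops 4) in 2 libraries, on the 4 libraries compared. Python 3.11.15, pandas 2.3.3 and numpy 2.4.6 were used, and the fits were tested on simulated data. Named in the text are all 8 genes, anchors at 5′ ends, the 2 strongest loops per gene except SMARCA4, some of whose loops are not reported here, and called loops; other anchors were named after their values were seen. Alternatives were DESeq2 1.42.0, other filters, totals, flanks, tiles, thinning to 253502 PETs, shared anchors, anchors of similar width, a replicate block and leaving out each library. No hg19 annotation was used here, so other subunit genes were not analysed here. Standard errors of log2 changes include the spread between libraries fitted by edgeR, and SDs are between the 2 libraries of a group. Neither is known to cover variation between cultures, and PETs carry no molecular identifiers.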

Additional observations from a re-analysis of the deposited data

How the results depend on the processing

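Direction and call of the SMARCA4 and SMARCC1 windows between ARID1A and H3K27ac at day 3 held under all 16 alternatives run. Windows that turned between day 3 and day 0 were SMARCD3 without flanks (0.46), SMARCA4 with 25 kb flanks (-0.0036), SMARCC1 with library totals (0.11) and the ARID1A gene with tiles of 200 kb (-0.0064). Between ARID1A and H3K27ac, the ARID1A gene turned with shared anchors only (0.12) and ARID1B with loops of the deposited value of 0.01 or less (-0.64). PBRM1 turned, uncalled, with library totals (0.051), tiles of 50 kb (0.023) and without ARID1A replicate 2 (its range without each replicate was -0.26 to 0.18), and was called lower with 25 kb flanks (-0.47) and shared anchors (-0.72). SMARCC1 was called lower at day 3 with 25 kb flanks (-0.55). Shared anchors left 2 called gene windows between day 3 and day 0. The cause of these turns was not tested beyond the SMARCD3 flank.

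Called features between day 3 and day 0 numbered 1182 anchors and 584 loops with DESeq2. These were 18.9% and 3.51% of those tested (3 of 10 anchors and 2 of 61 loops at the genes). Windows called numbered 1634 with the deposited value of 0.01 or less, 1634 with shared anchors, and 5955 with an anchor in either group. With the deposited value, 1554 anchors were called, 38.7% of those tested, and 42.6% of loops (3 of 8 anchors and 17 of 37 loops at the genes). Thinning left 215 loops, 2.33% of those tested (1 of 29 at the genes). Anchors of similar width left 499 anchors and 160 loops, 14.3% and 2.43% of those tested. With edgeR these included 1 of 5 anchors and 0 of 8 loops at the genes, where 1 loop had an unadjusted p under 0.05. Without each replicate, loops ranged from 1041 to 1361, with 3 to 7 at the genes and 3 to 4 anchors there.

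Between ARID1A and H3K27ac, DESeq2 called 3683 loops, 13.0% of those tested (7 of 92 at the genes). No filter on low PETs left 1 loop with edgeR among 128668 tested (0 of 463 at the genes, where 63 had an unadjusted p under 0.05). The deposited value of 0.01 or less gave 3302 windows, 3701 anchors and 6252 loops. It called 5 of 11 anchors at the genes, all lower, where 24.6% of all anchors were called higher and 35.3% lower. Thinning gave 4441 anchors and 1182 loops, with 11.1% of all loops called and 4 of 31 at the genes. Similar width gave 2660 anchors and 1917 loops. At the genes these included 4 of 5 anchors and 8 of 32 loops, all lower. Over all features 22.1% of anchors and 8.60% of loops were then lower, and 21.9% and 7.38% higher. Without each replicate, loops ranged from 3866 to 4152, with 7 to 9 at the genes.

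The replicate numbers did not pair the libraries (correlations of deviations from the group means of -0.02 to -0.00). With the number as a replicate block, 4 and 5 gene windows were called as without it, and 23 loops at the genes between ARID1A and H3K27ac, within 1.5 times of the count without it. Counts of 1 to 10 PETs per loop limit most single loops, and a left-out library leaves a lone one assumed to vary like the others.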
